A study of Mus musculus with 24 samples.

Results

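Expression of 8 genes from a pair of mouse gene clusters was followed in the left gastrocnemius, a calf muscle, of mice with or without induced muscle pain. The genes were Ly6a, Ly6c1, Ly6c2, Ly6e and Ly6i, 5 members of the lymphocyte antigen 6 family on chromosome 15, and Serpina3f, Serpina3g and Serpina3i, 3 serine protease inhibitor genes on chromosome 12. They were taken by name from 54532 genes in each count table, and all 8 were found. The set was chosen by family around Ly6i and Serpina3g, which were selected on their measured change in female muscle between active and sedentary animals with pain. Female values are therefore given as a description without a test, and the members are tested only in males and between the controls of the sexes.

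Bulk RNA was sequenced from 24 muscles, 4 in each of 6 groups, all from wild-type C57/BL6 mice and all labelled 24 h. Sedentary pain and active pain animals of either sex received 2 injections of 20 µl at pH 5.0 into the muscle, 5 days apart, with 6 min of electrically evoked contraction just before the second. Active pain animals had running wheels for 8 weeks beforehand, whereas sedentary animals had none. Controls were sedentary, received injections at pH 7.2 on the same schedule and had no evoked contraction, so acid and contraction cannot be told apart, and no active group without pain was included. The labels number the replicates without saying that each is a separate animal, so p-values measure the spread between these samples.

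Ly6 proteins are small, disulfide-bonded proteins that are held in the outer cell membrane by a glycolipid anchor. Many of them serve as surface markers: Ly6a, also called Sca-1, of stem and progenitor cells and endothelium, and Ly6c2 of inflammatory monocytes, which enter injured muscle from the blood. Several, Ly6a and Ly6e among them, are induced by interferons. Serpina3g, also called Spi2A, is an intracellular inhibitor of cathepsins that is induced in activated lymphocytes and macrophages, and Serpina3f and Serpina3i are neighbouring copies of the same mouse gene expansion.

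In build GRCm38, with GENCODE release 21 gene models, the 5 Ly6 genes lie close together. Ly6e is at chr15:74955051-74959905 on the plus strand. On the minus strand follow Ly6i (chr15:74979534-74983430), Ly6a (chr15:74994877-74998031), Ly6c1 (chr15:75044018-75048830) and Ly6c2 (chr15:75108158-75111970). The 3 serpin genes lie on the plus strand in the order Serpina3f (chr12:104214544-104221129), Serpina3g (chr12:104236245-104241939) and Serpina3i (chr12:104263122-104269372). All are protein coding.

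The copies resemble each other closely enough to bear on how reads are assigned. Ly6c1 and Ly6c2 each have 393 coding bases, of which 9 differ, so that they are 97.7% identical with one uninterrupted match of 188 bases. The first 80 bases of each coding sequence, which hold 6 of the 9 differences, are shown because most of what sets the monocyte gene apart from its neighbour in coding sequence lies there. Capitals mark the differing bases, and both are written 5′ to 3′ on the coding (minus) strand.
Ly6c1: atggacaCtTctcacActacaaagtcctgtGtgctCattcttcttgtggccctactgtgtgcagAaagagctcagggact
Ly6c2: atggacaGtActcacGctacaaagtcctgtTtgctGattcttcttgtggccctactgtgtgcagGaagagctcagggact
Of all stretches of 100 bases, the read length, in the annotated transcripts, 10.1% in Ly6c1 and 5.81% in Ly6c2 also occur in another gene. This share was 1.45% for Ly6a, 3.4% for Serpina3f, 3.49% for Serpina3g and 2.25% for Serpina3i. No such stretch was shared by Ly6e or Ly6i. Over the main coding transcript alone the shares were larger for the Ly6c pair, 15.3% in Ly6c1 and 15.8% in Ly6c2. How the authors' counting treated reads with several matches is not given in the sources used here, so low values of one copy beside a high neighbour are uncertain.

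For 5 of the 8 genes RefSeq promoter sequences of build GRCm38.p6 were at hand. The 250 bases before the start site were searched on both strands for TTCNNNGAA, the gamma-activated sequence of interferon-gamma target genes, and for the core of the interferon-stimulated response element, GAAA followed by GAAA with any 2 bases between. The 3 serpin promoters each held one TTCNNNGAA match, and they are shown because these genes had their highest levels in the same libraries, as described next. Capitals mark the match, and all are on the plus strand, from chr12:104214294-104214543, chr12:104235897-104236146 and chr12:104262872-104263121 in that order.
Serpina3f: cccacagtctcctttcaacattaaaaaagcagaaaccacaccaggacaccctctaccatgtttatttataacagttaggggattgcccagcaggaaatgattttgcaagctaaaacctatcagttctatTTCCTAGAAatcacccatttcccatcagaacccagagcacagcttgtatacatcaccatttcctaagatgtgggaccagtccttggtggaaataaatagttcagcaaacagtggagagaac
Serpina3g: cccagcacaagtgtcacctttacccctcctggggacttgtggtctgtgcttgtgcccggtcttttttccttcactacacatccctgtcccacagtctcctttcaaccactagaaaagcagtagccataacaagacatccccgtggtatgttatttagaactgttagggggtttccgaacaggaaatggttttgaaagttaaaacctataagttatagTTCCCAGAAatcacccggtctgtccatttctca
Serpina3i: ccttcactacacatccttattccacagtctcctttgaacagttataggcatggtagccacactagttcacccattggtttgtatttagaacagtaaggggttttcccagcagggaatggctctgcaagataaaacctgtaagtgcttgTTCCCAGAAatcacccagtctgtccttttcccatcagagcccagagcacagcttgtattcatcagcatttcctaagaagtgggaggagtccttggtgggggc
The match lies 121 to 113 bases before the start of Serpina3f, 33 to 25 before that of Serpina3g and 102 to 94 before that of Serpina3i, counted from the RefSeq starts. The GENCODE start of Serpina3g lies 98 bases further on, and from it the match is 131 to 123 bases away, so the distances of the copies are not compared. Serpina3g and Serpina3i share all letters of the match, and Serpina3f does not. Of 32851 promoters of that length, 7.02% held a TTCNNNGAA match and 2.98% a response element match. The 3 serpin genes are copies from one expansion, so their matches are not independent and are not read against that share. Whether the matches bear on the levels of these genes was not tested. Ly6c1 and Ly6c2 held neither sequence in their windows, and no promoter of the 5 held the response element.

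Total counts ran from 17612139 to 34039699 per library. All 10 skeletal muscle markers had counts in every library, and their summed level lay between 108300 and 255200 CPM (read counts relative to the library total, scaled by the trimmed mean of M-values, the scale of every level below). Replicates 3 and 4 of female sedentary pain stood apart from the other 22 libraries. They had the lowest muscle marker sums and the highest sums of monocyte, macrophage and lymphocyte markers, and results are given with and without them. The mitochondrial share of counts was 8.22%, 3.85%, 5.87% and 2.75% in female sedentary pain replicates 1 to 4, against 8.59% to 11.2% in the controls of both sexes. It was also low in male sedentary pain replicate 1 (4.53%) and male active pain replicate 2 (5.97%), the libraries with the highest male Ly6c2 and Ly6a values. Female active pain replicates 1 and 3, at 6.67% and 6.87%, were below the controls too, and they had the lowest and the highest Ly6c2 value of their group. Male active pain replicate 1 was also below the controls, at 8.14%, with Ly6c2 at 6.55 CPM. The part of this share in the members' values was not tested. In bulk tissue, fewer cells of a type and less RNA per cell cannot be told apart.

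Ly6c2, the monocyte antigen, had the widest range of the surface antigens with counts in every library. Its level in female controls was 0.0867, 0.21, 0.352 and 1.07 CPM in replicates 1 to 4. In female sedentary pain it was 9.46, 70.3, 149.6 and 313.8 CPM, and in female active pain 0.735, 2.72, 16.2 and 2.71 CPM. All 4 sedentary pain samples lay above every control, while active pain overlapped both groups, with replicate 1 inside the control range and replicate 3 above sedentary pain replicate 1. The means were 0.430 ± 0.440, 136 ± 132 and 5.60 ± 7.16 CPM (SD, n = 4 each). On the log2 scale sedentary pain lay 8.18 ± 1.35 (SE) above control and active pain 3.601 ± 1.197 above it, with active pain lower than sedentary pain at -4.57 ± 1.10.

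In males the same gene spanned lower values. Control values of Ly6c2 were 0.0341, 0.0699, 0.339 and 0.0629 CPM, sedentary pain values 9.57, 0.736, 1.35 and 1.46 CPM, and active pain values 6.55, 8.24, 0.411 and 0.673 CPM. Every male pain sample, sedentary or active, lay above every male control. The highest male value was close to the lowest of female sedentary pain.

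Ly6c1, the near-identical neighbour that is known from endothelium, moved far less. Its female values were 41.8, 32.9, 50.7 and 52.2 CPM in controls, 58.1, 86.8, 88.3 and 106.9 CPM in sedentary pain, and 58.9, 55.7, 85.1 and 64.5 CPM in active pain. Both pain groups lay above every female control and overlapped each other. The log2 difference from control was 0.92 ± 0.21 in sedentary and 0.57 ± 0.21 in active pain. Over the 4 females with sedentary pain Ly6c1 spanned 1.84 times from lowest to highest, against 33.2 times for Ly6c2. Ly6c2 accordingly made up 0.207% to 2.01% of the summed Ly6c1 and Ly6c2 counts in female controls and 14.01%, 44.8%, 62.9% and 74.6% in sedentary pain. The sum of both genes, which does not depend on how reads are split between them, had a mean of 44.8 ± 9.22 CPM in female controls, 220.8 ± 150.4 CPM in sedentary pain and 71.7 ± 20.2 CPM in active pain (SD, n = 4 each). The summed level of 10 endothelial markers lay between 192 and 314 CPM over all groups, with medians of 286, 253.5 and 260.2 CPM in female control, sedentary pain and active pain.

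Ly6a, the progenitor and endothelial antigen, was present in every library. Female controls had 38.7, 35.4, 54.2 and 51.9 CPM, sedentary pain 98.0, 232.4, 306.8 and 614.5 CPM, and active pain 70.4, 64.1, 143.7 and 79.0 CPM. Neither pain group overlapped the controls, and sedentary pain replicate 1 lay below active pain replicate 3. The log2 difference from control was 2.78 ± 0.47 in sedentary and 0.99 ± 0.45 in active pain. Male controls had 24.7, 28.5, 33.1 and 22.9 CPM, sedentary pain 144, 47.7, 54.9 and 51.2 CPM, and active pain 102.7, 158.1, 57.6 and 37.1 CPM. Here too all pain samples lay above the controls. The summed level of 9 fibroadipogenic progenitor markers ranged from 523.8 to 1585 CPM in female sedentary pain and from 724.2 to 861.5 CPM in female controls, and its part in the Ly6a values was not tested.

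Ly6e, a widely expressed antigen inducible by interferon, followed the same order. Levels in female controls were 71.0, 59.95, 136.2 and 116.7 CPM, in sedentary pain 163.9, 492.1, 596.9 and 1419 CPM, and in active pain 124.5, 85.1, 214 and 128 CPM. Sedentary pain lay above every control, whereas active pain overlapped the control range in 3 of 4 samples. The log2 difference from control was 2.78 ± 0.56 in sedentary and 0.52 ± 0.52 in active pain. In males the values were 45.5, 47.3, 72.6 and 38.2 CPM in controls, 276.1, 60.01, 82.5 and 109.3 CPM in sedentary pain, and 130.1, 197.8, 89.2 and 71.2 CPM in active pain.

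Ly6i, an antigen described on bone marrow-derived cells, was near the limit of detection except in female sedentary pain. Its female control values were 0, 0.21, 0.117 and 0.428 CPM and its active pain values 0, 0.106, 0.616 and 0.547 CPM. In sedentary pain it was 0.643, 4.26, 67.7 and 243.4 CPM, which rest on 17, 73, 2086 and 6889 counts. Replicates 3 and 4 thus carried most of the group mean of 79.0 ± 113.8 CPM (SD, n = 4), though replicates 1 and 2 also lay above every control and active pain sample. The highest male value was 0.566 CPM, in sedentary pain replicate 1, and 2 of the 12 male libraries had no count. The log2 difference in females was 8.55 ± 1.74 for sedentary pain and 0.71 ± 1.96 for active pain against control, and -7.84 ± 1.66 for active against sedentary pain.

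**Figure D1:**
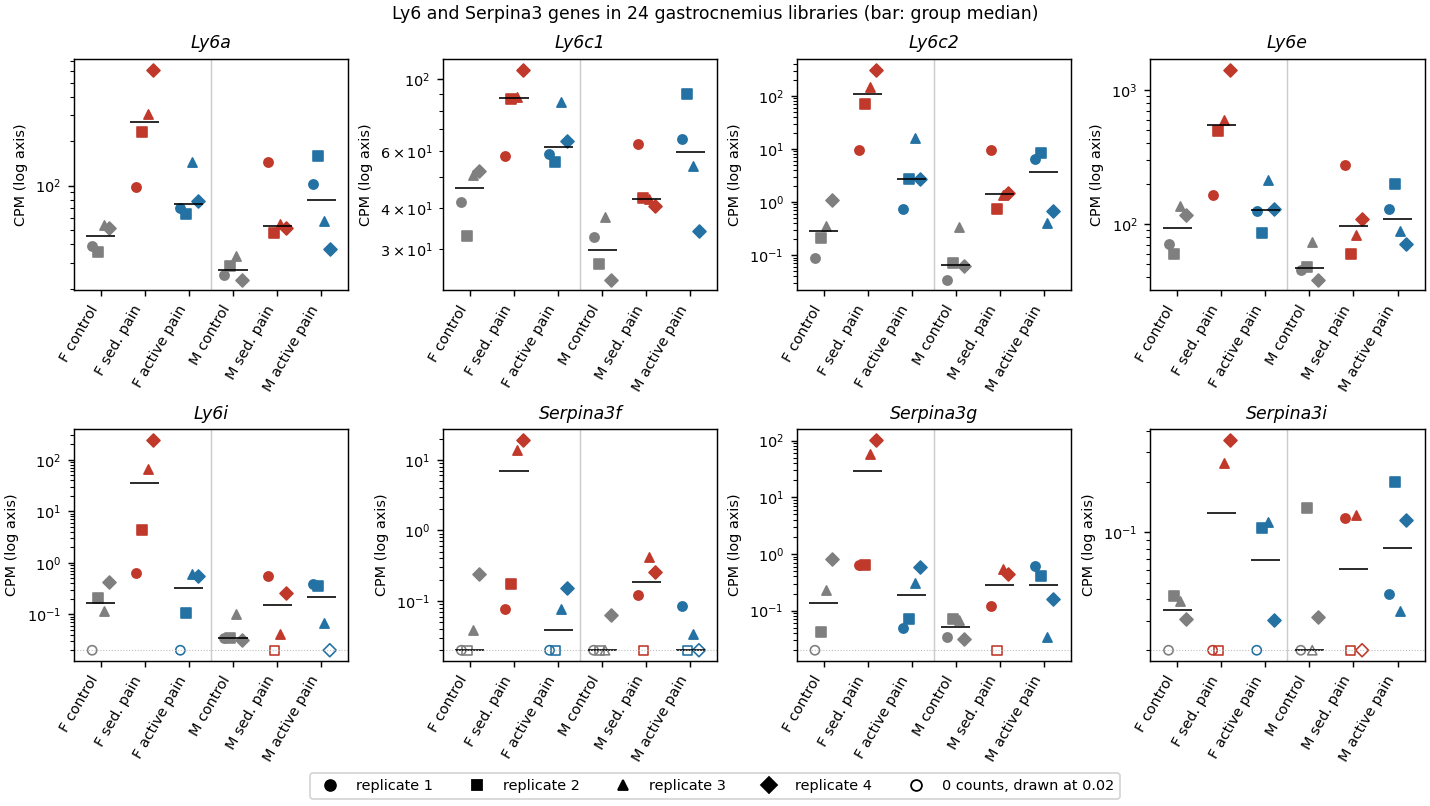
CPM on a log axis for each of the 8 genes (panels) in 24 libraries, with groups along the x axis, marker shape for the replicate number, a bar at the group median and open markers for 0 counts, drawn at 0.02. Ly6i, Serpina3f and Serpina3g reach 13.8 CPM or more in female sedentary pain replicates 3 and 4 and stay at or below 4.26 CPM in the other 22 libraries, whereas Ly6c2 is raised in all 4 females with sedentary pain.

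Serpina3g, the cathepsin inhibitor, exceeded 1 CPM in the same pair of libraries and in no other. Female controls had 0, 0.0421, 0.234 and 0.825 CPM, sedentary pain 0.643, 0.642, 58.1 and 102.2 CPM, and active pain 0.049, 0.0706, 0.308 and 0.578 CPM. Replicates 1 and 2 of sedentary pain, with 17 and 11 counts, lay below control replicate 4, so the groups overlapped, while all 4 sedentary pain samples lay above all 4 active ones. In males no library exceeded 0.603 CPM, and the 4 controls had 0.0341, 0.0699, 0.0679 and 0.0315 CPM. In females the log2 difference was 7.02 ± 1.66 for sedentary pain and -0.17 ± 1.83 for active pain against control, and -7.19 ± 1.68 for active against sedentary pain.

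Serpina3f was at 0.0756, 0.175, 13.8 and 19.1 CPM in female sedentary pain, from 2, 3, 425 and 541 counts. Elsewhere it did not exceed 0.422 CPM, the value of male sedentary pain replicate 3. Serpina3i had 0, 0, 8 and 10 counts in female sedentary pain, or 0.259 and 0.353 CPM in replicates 3 and 4, and at most 0.2 CPM in any other library. Neither gene passed the filter on low counts in the fit of either sex. The ratio of Serpina3f to Serpina3g counts was 0.237 and 0.187 in replicates 3 and 4. Because stretches of Serpina3i also occur in its neighbours, its 10 or fewer counts per library are uncertain. Summed over the 3 serpins, the mean level of females was 48.8 ± 59.1 CPM with sedentary pain, 0.372 ± 0.321 CPM with active pain and 0.374 ± 0.502 CPM in controls (SD, n = 4 each).

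Levels can be ranked between genes per kilobase, taken here over all annotated exons of a gene. In female controls the mean CPM per kilobase was 37.4 ± 7.78 for Ly6a, 26.5 ± 5.32 for Ly6c1 and 25.4 ± 9.61 for Ly6e (SD, n = 4), the last 2 closer to each other than their spread. The other 5 were at or below 0.163 CPM per kilobase. In female sedentary pain the order was Ly6a (259.7 ± 181.6), Ly6e (176.5 ± 141), Ly6i (68.3 ± 98.5), Ly6c1 (50.7 ± 12.03), Ly6c2 (49.6 ± 48.1), Serpina3g (19.2 ± 23.4), Serpina3f (3.62 ± 4.22) and Serpina3i (0.0689 ± 0.0814). With these SDs most neighbours in that order did not differ beyond their spread. Places 3 to 5 depended on the length used. Per kilobase of the annotated coding transcript, which has 822 bases for Ly6c2 against 2740 over all exons, Ly6c2 was at 165.2 ± 160.4, Ly6c1 at 100.7 ± 23.9 and Ly6i at 68.3 ± 98.5, while Ly6a and Ly6e kept places 1 and 2. In males Ly6a came first in every group over all exons, but in controls Ly6c1 did (35.95 ± 7.17 against 33.3 ± 5.49) by transcript length.

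The female sedentary pain differences were read again without the pair of libraries that stood apart, with all other samples kept. The log2 difference from control was then 1.86 for Ly6a, 0.69 for Ly6c1, 6.41 for Ly6c2, 1.76 for Ly6e, 3.56 for Ly6i and 1.11 for Serpina3g. Every one of the 6 stayed above control, and Ly6i and Serpina3g lost most of their difference. Against active pain the same samples gave active pain lower by values from -0.12 for Ly6c1 to -2.84 for Ly6i.

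In all 6 groups replicates 1 and 2 carry library numbers up to 20 and replicates 3 and 4 numbers from 25, and what the numbers stand for is not given in the labels. Female levels were higher in replicates 3 and 4 in the controls too. Mean Ly6c2 was 0.1485 CPM in control replicates 1 and 2 and 0.711 CPM in 3 and 4, and mean Serpina3g 0.021 and 0.530 CPM. In female active pain Ly6c2 was at 1.73 and 9.48 CPM and Serpina3g at 0.0598 and 0.443 CPM. Fits within each pair of replicates, controls included, gave a female sedentary pain difference from control of 2.15 and 3.11 for Ly6a, 0.95 and 0.91 for Ly6c1, 8.00 and 8.29 for Ly6c2 and 2.31 and 2.99 for Ly6e. Female control replicates 1 and 2 held 0 and 5 counts of Ly6i and 0 and 1 of Serpina3g. No sedentary pain difference within a pair is therefore given for these genes. Their means in sedentary pain were 2.45 and 155.5 CPM for Ly6i and 0.643 and 80.1 CPM for Serpina3g. Male Ly6c2 had control means of 0.052 and 0.201 CPM, the first from 1 and 2 counts, so levels stand here in place of ratios. They were 5.15 and 1.40 CPM in male sedentary pain and 7.39 and 0.542 CPM in male active pain. For Ly6a the male ratios to control were 3.61 and 1.897 in sedentary and 4.91 and 1.69 in active pain. With a term for library number, up to 20 or from 25, in the fit, the female sedentary pain difference from control was 2.63 for Ly6a, 8.19 for Ly6c2 and 6.92 for Serpina3g, and no member passed in any male comparison.

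Of the 6 members that passed the count filter in females, 5 lay above every control in sedentary pain, against 15.3% of all 14511 genes tested. In active against control 2 members (Ly6a and Ly6c1) lay above every control, against 3.6%, and in active against sedentary pain 2 members (Ly6i and Serpina3g) lay below every sedentary sample, against 6.37%. These comparisons share animals with the contrast that led to the choice of the genes, so nothing is read from the counts. Serpina3f and Serpina3i are left out of them by the filter.

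The male libraries took no part in that contrast and were tested with edgeR's quasi-likelihood test, adjusted over 14404 genes. Of the 8 members 5 could be tested, since Ly6i, Serpina3f and Serpina3i were too low. None passed an adjusted p of 0.05 in sedentary pain against control, and neither did any other gene (0%). All 5 were higher in sedentary pain. Ly6c2 differed by 4.66 ± 1.29 (adjusted p = 0.298), Ly6a by 1.47 ± 0.46 (0.336), Ly6e by 1.39 ± 0.47 (0.359), Ly6c1 by 0.66 ± 0.27 (0.499) and Serpina3g by 2.34 ± 1.05 (0.559), all log2 with SE. Ly6c2 and Serpina3g, with at most 10 and 2 counts in any male control, passed the count filter through the pain groups, so no count over the 5 is read as support. Of Ly6a, Ly6c1 and Ly6e, 3 of 3 had an unadjusted p under 0.05, against 8.84% of genes. Their levels moved together over the 24 samples (pairwise r from 0.89 to 0.973), so they are not 3 separate observations. Of these 3, Ly6a and Ly6c1 lay above every control, which 3.95% of genes did. DESeq2 called none of the 3, where it called 1.83% of all genes higher. Its adjusted p for Ly6c2 was 0.00239, a value that carries the limit of the filter. Without replicate 1 of male sedentary pain, the Ly6c2 difference was 3.19 and that of Ly6a 0.93, with edgeR adjusted p-values of 0.8294 and 0.930.

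Male active pain was compared with the same 4 controls. No member and no other gene (0%) passed. Ly6c2 was 4.92 ± 1.29 higher, Ly6a 1.71 ± 0.46 and Ly6c1 1.01 ± 0.27 (edgeR adjusted p = 0.465 each). Ly6e was 1.26 ± 0.47 higher (0.576) and Serpina3g 2.43 ± 1.05 (0.634). Again 3 of 3 of Ly6a, Ly6c1 and Ly6e, which are not separate observations, had an unadjusted p under 0.05, against 7.25% of genes. Ly6a lay above every control, which 6.34% of genes did. DESeq2 called Ly6a and Ly6c1 of these 3, at adjusted p-values of 0.0324 and 0.0454, where it called 0.822% of all genes higher. Its adjusted p for Ly6c2 was 0.00261, with the same limit of the filter.

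Between active and sedentary pain in males the members did not separate. Log2 differences ran from -0.13 ± 0.46 for Ly6e to 0.34 ± 0.27 for Ly6c1, and no member passed at either the adjusted (0% of genes) or the unadjusted level (0.84% of genes), with an edgeR adjusted p of 0.9999 for every member. DESeq2 called none of the 5 either, and 0% of all genes. The medians over all genes tested in males were -0.01 for sedentary pain against control, 0 for active pain against control and -0.04 for active against sedentary pain.

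**Figure D2:**
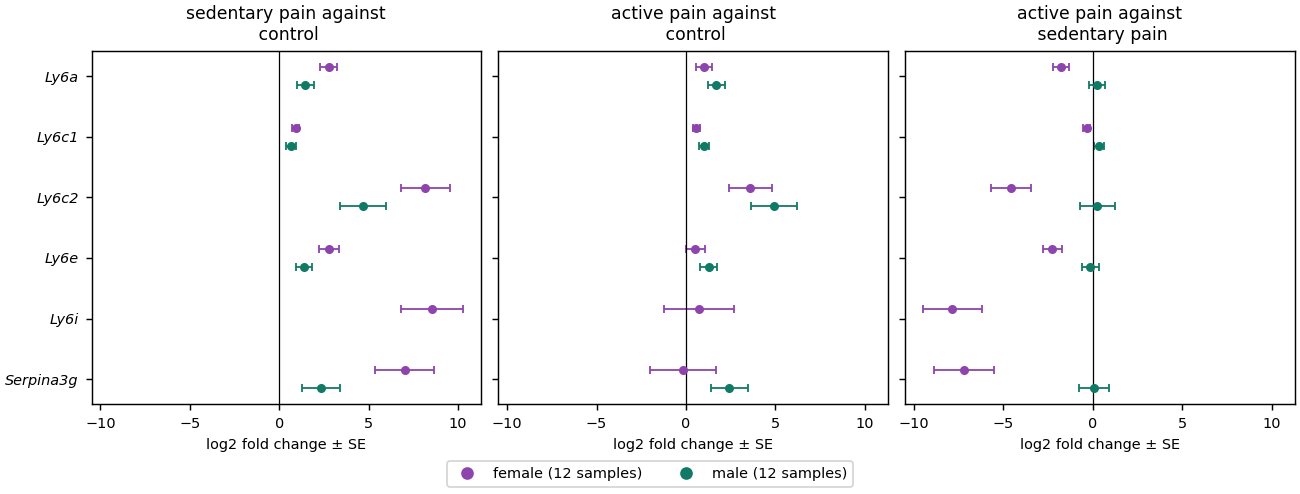
Log2 fold change with its SE (x axis) for the 6 members with a fitted value (rows), in females and males (colours, 12 samples each), for 3 comparisons (panels). In active against sedentary pain the female values lie between -7.84 and -0.34 and the male values between -0.13 and 0.34. Ly6i has no male value because it did not pass the count filter.

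Whether the sexes differ already in controls was tested in a joint fit of all 24 samples. None of the 6 members tested passed the threshold, where 1.54% of 15103 genes were called higher and 1.28% lower. Ly6i, Ly6c2 and Serpina3g passed the count filter through the pain groups and had at most 10 counts in a male and 35 in a female control, so their control values are not compared. Ly6a, Ly6c1 and Ly6e had lower values in male controls. Ly6c1 was at -0.55 ± 0.25 (edgeR adjusted p = 0.299), and the only one of these 3 with an unadjusted p under 0.05, against 14.9% of genes. Ly6a was at -0.72 ± 0.47 and the only one of the 3 with every male below every female, which 9.3% of genes did. Of 35 alternative fits Ly6a passed in 1, that of only the 8 control samples (edgeR adjusted p = 0.0206). The share of all genes called in that fit is not given here, so nothing is read from the call. In the same joint fit the sedentary pain change of the 6 members was larger in females by 0.29 ± 0.35 (Ly6c1) to 6.61 ± 3.57 (Ly6i) on the log2 scale, given without a test since female samples entered the choice. These values depended on single libraries and on the replicates used. With 1 library left out at a time they ran from 0.73 to 1.88 for Ly6a and from 2.44 to 5.01 for Ly6c2. Without female sedentary pain replicates 3 and 4 they were 0.42 and 1.80, and Serpina3g, 4.74 over all samples, turned to -1.22. Replicates 1 and 2 alone gave 0.25 for Ly6a, and replicates 3 and 4 alone 2.20. No gene at all passed that interaction (0% of genes at the adjusted and 9.57% at the unadjusted level).

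Interferon-gamma is a lymphocyte cytokine that signals through the receptor chains Ifngr1 and Ifngr2 and induces the transcription factor IRF1. Its transcript, Ifng, was at 0.0378, 0, 2.53 and 5.51 CPM in female sedentary pain and at most 0.0917 CPM in the other 20 libraries, so the libraries with Ifng above 1 CPM were those with Serpina3g and Ly6i above 50 CPM. Ifng itself did not pass the count filter in females. The interferon-gamma list was chosen with earlier results of these data known, as the members were. Its counts and p-values are therefore a description wherever female pain samples enter. Of 37 pathway and response genes, 36 were tested in females and 26 rose in sedentary pain against control with none lower, where 19.6% of all genes rose and 13.9% fell. Their median log2 difference was 3.28, against -0.02 over all genes. The 4 with the smallest p were Upp1 (5.34 ± 0.91, edgeR adjusted p = 0.00311), which degrades uridine, the class II invariant chain Cd74 (4.57 ± 0.93, 0.00558), the immunoproteasome subunit Psmb8 (3.77 ± 0.77, 0.00589) and Ciita, the class II transactivator (4.29 ± 0.88, 0.00597). Irf1 (3.71 ± 0.85, 0.00898) also rose, while the receptor chains Ifngr1 (0.75 ± 0.41, 0.157) and Ifngr2 (0.17 ± 0.17, 0.436) did not pass. Without female sedentary pain replicates 3 and 4 only 2 of 36 passed, Upp1 and Cd74, both higher, where 7.51% of all genes rose. With replicates 1 and 2 alone in every group 8 of 34 rose, against 1.56% of all genes.

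In female active against sedentary pain 22 of 36 of these genes fell, where 9.41% of all genes fell and 2.51% rose, with a median of -3.23 against 0.01 over all genes. Results of this contrast were known when the list was chosen, so the count is a description. The 4 with the smallest p were Upp1 (-4.02 ± 0.82), Ciita (-3.69 ± 0.85), Socs1 (-4.00 ± 0.93), a feedback inhibitor of cytokine signalling, and Irf8 (-3.02 ± 0.72), a myeloid transcription factor, each at an edgeR adjusted p of 0.0328. This count fell to 0 when sedentary pain replicate 3 or 4, or active pain replicate 1, 2 or 4, was left out, when both of the first 2 were left out, and also with replicates 1 and 2 alone. It was 15 without active pain replicate 3, and 29 and 27 without sedentary pain replicates 1 and 2. In female active pain against control none of the 36 passed, and neither did any gene (0%), with 1 at an unadjusted p under 0.05, against 7.03% of all genes, and a median of 0.22. DESeq2 called none of the 36 there and 0.862% of all genes.

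In males none of 34 pathway genes tested passed in any comparison with edgeR, though 20 had an unadjusted p under 0.05 in each of the 2 comparisons with control, against 8.84% of all genes for sedentary and 7.25% for active pain. Their medians were 1.16 and 1.23 against control and 0.08 for active against sedentary pain. DESeq2 called 4 and 5 of them higher than control, where it called 1.83% and 0.822% of all genes higher. For the interaction of sex with sedentary pain the median was 2.48 over 36 genes and 0 passed in edgeR, with 18 at an unadjusted p under 0.05, against 9.57% of all genes. Replicates 3 and 4 alone gave 16 of 37 past the threshold, all with a larger change in females, where 6.99% of all genes were called in that direction. None passed with replicates 1 and 2 alone, or without female sedentary pain replicates 3 and 4. Between controls 1 of 36, Ido1, a tryptophan-degrading enzyme, was lower in males (-5.29 ± 1.34, edgeR adjusted p = 0.0331), where 1.28% of all genes were lower. That call was lost in 6 of 24 fits that each left out 1 library, namely without female control replicate 3 or 4 or any one of the 4 male controls. With replicates 3 and 4 alone, 7 of 37 were lower in males, against 3.48% of all genes, and 1 was higher, while replicates 1 and 2 alone gave none.

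**Figure D3:**
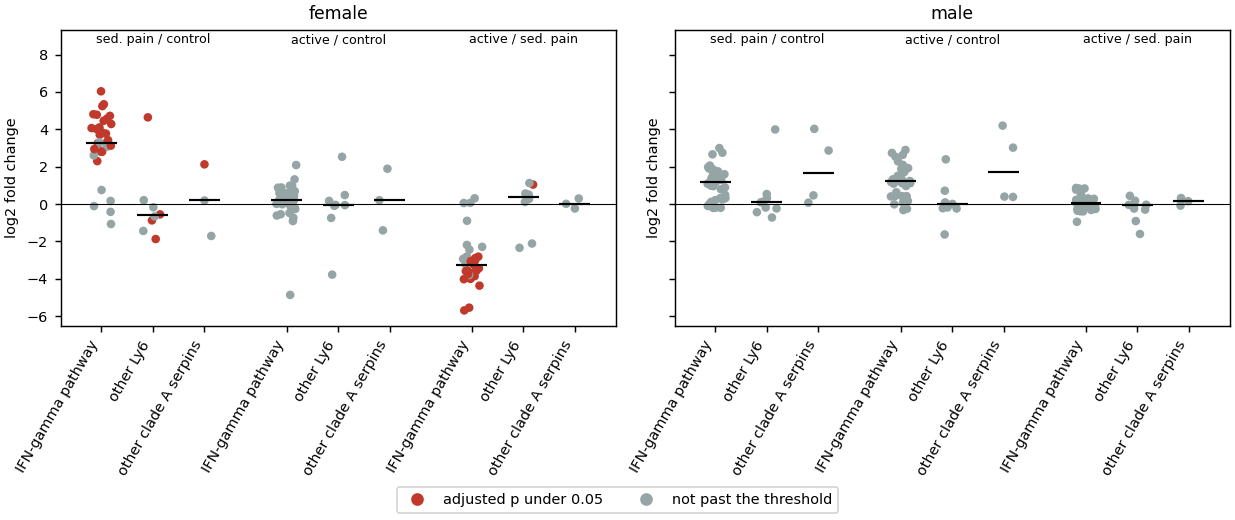
Log2 fold change (y axis) of each tested gene of 3 related lists in females (left) and males (right) for 3 comparisons, with a bar at the list median and red points for edgeR adjusted p under 0.05. In females the interferon-gamma genes have medians of 3.28, 0.22 and -3.23 for sedentary pain against control, active pain against control and active against sedentary pain. No point in the male panel is red.

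Further genes of the 2 families, also listed with earlier results of these data known, were counted in the same way. Of 33 further genes of the Ly6 superfamily 31 were found and 8 tested in females. In sedentary pain against control 1 rose, Plaur, the urokinase receptor (4.64 ± 0.90, edgeR adjusted p = 0.00469), and 3 fell: Lypd6 (-1.87 ± 0.37, 0.0051), Lynx1, a modulator of nicotinic receptors (-0.87 ± 0.26, 0.0284), and Cd59a, a complement inhibitor (-0.55 ± 0.20, 0.048), where 19.6% of all genes rose and 13.9% fell. The median of the 8 was -0.60. Without female sedentary pain replicates 3 and 4, Plaur passed and none of the other 3 did. The calls of Cd59a and Lynx1 were lost in 10 and 4 of 12 fits that each left out 1 library. Lynx1 rose in active against sedentary pain (1.04 ± 0.27, edgeR adjusted p = 0.0333), a call absent from 5 of 12 fits that each left out 1 library and from the fit without that pair. Among controls Ly6g6e (3.85 ± 0.68, 0.00329), Ly6g6d (3.36 ± 0.69, 0.008) and Lynx1 (1.10 ± 0.27, 0.0275) were higher and Ly6d (-5.19 ± 1.30, 0.0313) lower in males, of 10 tested, where 1.54% of all genes were higher and 1.28% lower. Ly6g6e and Ly6g6d did not pass the count filter in the female fit, nor Ly6d in the male fit. These 3 thus passed the joint filter through the sex where they were higher, and their calls are not read as support. The calls of Lynx1 and Ly6d were each lost in 5 of 24 fits that left out 1 library, namely without female control replicate 3 or 4 or male control replicate 1, 2 or 4. Ly6g, the neutrophil antigen of the same cluster, was at most 0.467 CPM in any library. Among 22 other clade A serpins, all found, 3 were tested in females, and Serpina3n, a secreted inhibitor from the same gene cluster, rose in sedentary pain (2.13 ± 0.46, edgeR adjusted p = 0.00732). In males 0 of 9 other Ly6 genes and 0 of 4 other serpins passed with edgeR in any comparison. Against control 1 Ly6 gene and 2 serpins had an unadjusted p under 0.05, in sedentary as in active animals, against 8.84% and 7.25% of all genes. DESeq2 called 0 of these Ly6 genes and 2 serpins higher in either comparison, against 1.83% and 0.822% of all genes, and 1 Ly6 gene lower in active animals, against 0.0703%.

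Serpina3n did not follow its 3 neighbours between libraries. Females had 4.12, 4.50, 16.6 and 11.2 CPM in controls, 28.03, 53.9, 45.01 and 35.1 CPM with sedentary pain and 21.9, 35.1, 55.8 and 22.8 CPM with active pain. All 8 female pain samples lay above the controls, and replicates 3 and 4 of sedentary pain were not set apart. In active pain against control the difference was 1.89 ± 0.46 (edgeR adjusted p = 0.565). DESeq2 called it there (adjusted p = 0.00858), where it called 0.862% of all genes. In males the Serpina3n difference was 2.87 ± 0.75 for sedentary and 3.02 ± 0.75 for active pain against control (edgeR adjusted p = 0.296 and 0.465), and DESeq2 called both.

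Markers of other cell types differed between these libraries as well. The summed level of 12 monocyte and macrophage markers, all with counts in every group, was 411, 754, 3483 and 4444 CPM in female sedentary pain. It was 64.1 to 158.5 CPM in female controls, 160.9 to 417.4 CPM in female active pain, 49.8 to 100 CPM in male controls, 99.5 to 779 CPM in male sedentary pain and 143 to 445 CPM in male active pain. The highest male sum and the highest male Ly6c2 value were both in sedentary pain replicate 1. The sum of 10 T and natural killer cell markers was 4.198, 6.89, 72.3 and 117.3 CPM in female sedentary pain and at most 3.24 CPM in any other library, which is the split seen in Ifng, Ly6i, Serpina3f and Serpina3g. The sum of 8 neutrophil markers was 21.1, 257, 40.2 and 57.3 CPM in female sedentary pain, was highest in male sedentary pain replicate 1 (299 CPM), and had Ly6g at 0 in all male controls. The sum of 7 adipocyte markers ranged from 147 to 615 CPM in female sedentary pain and from 371 to 4088 CPM in female controls. The part of these cell types in the members' values was not tested.

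**Figure D4:**
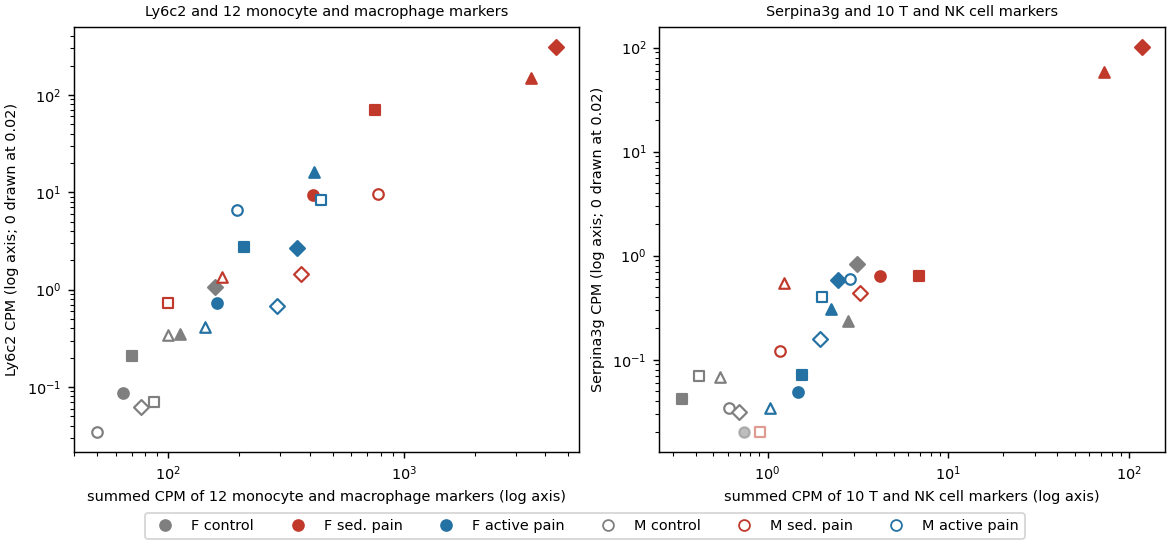
Left, Ly6c2 against the summed level of 12 monocyte and macrophage markers; right, Serpina3g against that of 10 T and natural killer cell markers, both in CPM on log axes, 1 point per library and 0 counts drawn pale at 0.02. In the right panel female sedentary pain replicates 3 and 4, at 58.1 and 102.2 CPM of Serpina3g, lie apart from the other 22 libraries. In the left panel the same pair lies at marker sums of 3483 and 4444 CPM, with no other library above 779 CPM, while on the Ly6c2 axis replicate 2 of that group, at 70.3 CPM, lies nearest to them.

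The genes most like each member over the 24 samples were sought among 12366 genes by the Pearson correlation of log2 CPM, as a description, since the points share groups, libraries and the pair of samples that stand apart. For Ly6c2 they were Plac8 (r = 0.984), which is also one of the monocyte markers, Zbp1 (0.980) and Ms4a4c (0.979). Those of Serpina3g were Cxcl9 (0.967), a chemokine induced by interferon-gamma, Gbp2 (0.963) and Ccl5 (0.957), which fell to 0.887, 0.811 and 0.843 without female sedentary pain replicates 3 and 4. For Ly6i, Pik3r6 (0.960), Cxcl16 (0.956) and Samhd1 (0.955) came first, at 0.842, 0.813 and 0.822 without those libraries. Ly6a was most like Ifitm3 (0.989), Sp110 (0.980) and Bst2 (0.975), and Ly6e most like Grn (0.992), Sp110 (0.989) and Shisa5 (0.989). Ly6c1 had lower coefficients, with Ctla2a (0.924), Mmp3 (0.921) and Pcolce (0.920). Among the members themselves, Ly6i and Serpina3g correlated at 0.936, Ly6a and Ly6e at 0.973, and Ly6c1 and Serpina3g, the least alike pair, at 0.651.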

How the data were processed

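RNA-seq of 24 mouse muscle samples was read from the deposited tables of raw counts per gene, 1 per sample. Per the labels' protocols, libraries came from 0.5 µg of total RNA with a stranded kit and paired reads of 100 bases. HISAT2 2.1.0, Salmon 0.9.1, featureCounts and DESeq2 1.24.0, with builds mm10 and GRCm38.p6, are named in the submitters' processing notes; the strand and multiple-match settings are not given in the sources used here. Depth was 17612139 to 34039699 counts.

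Groups came from the labels. Each sex was fitted separately over 12 samples with edgeR 4.0.16 (robust quasi-likelihood F test, two-sided, TMM, filterByExpr with a minimum count of 10, Benjamini-Hochberg adjustment over all genes tested, threshold 0.05). Male against female controls and the sex interaction were fitted over 24 samples. CPM used TMM library sizes over all 24 samples. Fits were tested on simulated data. The members and lists were chosen with earlier results of these data known. Named genes are all members, up to 4 per list and comparison with the smallest p among those past the threshold, Ifng, Ifngr1, Ifngr2, Irf1, Serpina3n, Ly6g, and the 3 genes most like each member (mean log2 CPM of at least 0, prior count 2); 1 further gene of the rule is not reported here. Alternatives were other normalization, DESeq2 1.42.0, other count filters, other sample sets, a replicate block, a library-number term and leaving out each sample.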

Additional observations from a re-analysis of the deposited data

Results flagged for a closer look

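In each of the 48 combinations of a member and a group, the highest and lowest of 4 samples were compared with the rest, and 8 had a sample set far apart from the other 3. Chance flags about 1 in 20 groups of independent, normally distributed values. The CPM here are skewed and come from related genes, and each of the 8 was the highest of its group, so their number is not read against that rate. Male sedentary pain replicate 1 was the highest for Ly6a (144 CPM), Ly6c1 (63.3 CPM) and Ly6c2 (9.57 CPM), and it also had the highest neutrophil and male monocyte marker sums. Ly6c2 was at 16.2 CPM in female active pain replicate 3 and at 0.339 CPM (10 counts) in male control replicate 3. The other 3 rest on 8 counts or fewer: Ly6i in male control replicate 3 (0.102 CPM), Serpina3f in female control replicate 4 (0.245 CPM) and Serpina3f in male control replicate 4 (0.0629 CPM).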

How the results depend on the processing

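Low counts limit Ly6i, Serpina3f, Serpina3g and Serpina3i outside female sedentary pain: 3 counts over a group of 4 libraries equal 0.0252 to 0.0292 CPM, and such values cover counting error only. The cause of the changes listed here was not tested, beyond the fewer samples or genes that some alternatives hold. Where a count called in an alternative fit stands without the share of all genes called, nothing is read from it about the list. The fits with replicates 1 and 2 alone or 3 and 4 alone and those without the 2 female libraries that stood apart were chosen after seeing the data, as was the transcript length for levels per kilobase.

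Deviations of same-numbered samples from their group means had a mean correlation of 0.103 (lowest -0.305) in females and 0.007 (lowest -0.652) in males over 12 pairs each. For differently numbered samples the mean was -0.034 in females and 0.012 in males over 36 pairs each. Whether the numbers pair the samples cannot be settled from these values. Mean Ly6c2 and Serpina3g were higher in replicates 3 and 4 than in 1 and 2 in all 3 female groups. With the replicate number as a block, 0 members passed in each male comparison and 23 interferon-gamma genes rose in female sedentary pain. The block turned the direction of Serpina3g in female active pain against control (0.0069) and of Ifngr2 in male sedentary pain against control (-0.0009).

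With DESeq2, 1 member (Ly6c2), 2 other serpins and 4 interferon-gamma genes passed in male sedentary pain against control, where it called 1.83% of all genes higher. In male active pain against control 3 members (Ly6a, Ly6c1 and Ly6c2), 1 other Ly6 gene, 2 other serpins and 5 interferon-gamma genes passed. There it called 0.822% of all genes higher and 0.0703% lower. Ly6c2 passed the count filter through the pain groups, so its calls are not read as support. In females DESeq2 called 2 other serpins in sedentary pain against control and 3 other Ly6 genes in active against sedentary pain. In female active pain against control it called 1 other serpin, Serpina3n, and 0.862% of all genes. With only the groups compared in the fit, 2 other Ly6 genes passed in female sedentary pain against control, 0 interferon-gamma and 0 other Ly6 genes in female active against sedentary pain, and 1 member (Ly6a), 2 other Ly6 and 2 interferon-gamma genes between the controls of the sexes. The share of all genes called in these fits is not given here, so the member count is not read as a result. Without a count filter the latter interferon-gamma count was 0, and in female active against sedentary pain 0 interferon-gamma and 0 other Ly6 genes passed. With a mean of at least 50 counts, 1 other Ly6 and 0 interferon-gamma genes passed between controls. All 24 samples in one fit gave 2 other serpins in female sedentary pain, and a term for library number gave 2 other Ly6 genes in female active against sedentary pain.

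Replicates 1 and 2 alone left 8 interferon-gamma and 0 other Ly6 genes in female sedentary pain, 0 of either in female active against sedentary pain and 0 of either between controls. Replicates 3 and 4 alone gave 2 other serpins in female sedentary pain, 1 other Ly6 and 1 interferon-gamma gene in female active pain against control, 3 other Ly6 genes in female active against sedentary pain, 8 interferon-gamma genes between controls and 16 in the interaction of sex with sedentary pain, where 3.48% of all genes were called lower in male controls and 6.99% with a larger female change.

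Without female sedentary pain replicates 3 and 4, 2 interferon-gamma genes and 1 other Ly6 gene passed in female sedentary pain against control and 0 of either in female active against sedentary pain. Ifngr1 turned in these comparisons (-0.3285 and 0.1898) and Serpina3g in the interaction of sex with sedentary pain (-1.2215).

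The members that changed direction lay close to 0 or on few counts. With replicates 1 and 2 alone these were Ly6i (-0.7817) and Serpina3g (1.304) in female active pain against control and Serpina3g (1.0815) between controls. In those replicates Ly6i had 0 and 5 counts in female controls and 0 and 3 in female active pain. Serpina3g had 0 and 1 counts in female controls, 1 and 2 in female active pain and 1 and 2 in male controls. With so few counts, no direction is read from these values. In male active against sedentary pain, replicates 3 and 4 alone gave -0.1725 for Ly6a, -1.3926 for Ly6c2 and -2.3634 for Serpina3g, and the library-number term -0.1313 for Ly6c2. Of pathway genes, Ifngr2 turned in female sedentary pain (-0.0244, replicates 1 and 2) and in male sedentary pain (-0.0141 without a filter, -0.0136 over all samples, -0.0772 with replicates 3 and 4). Ifngr1 turned in female active pain against control (0.2201) and against sedentary pain (0.0118) with replicates 1 and 2, in male active pain against control with replicates 3 and 4 (-0.034) and against sedentary pain with replicates 1 and 2 (0.0502). Irf1 (0.0043 over all samples, 0.5967 with replicates 1 and 2) turned in male active against sedentary pain.

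Leaving out 1 library at a time, 0 members passed in any male comparison or between controls, and all members fitted kept their direction against control, except Serpina3g in female active pain (-1.0317 to 1.4365). In male active against sedentary pain the ranges were -0.1855 to 0.7764 for Ly6a, -0.3834 to 1.725 for Ly6c2, -0.4543 to 0.5222 for Ly6e, -0.4997 to 0.641 for Serpina3g, -0.1804 to 1.0242 for Serpina3n, -0.1365 to 0.0505 for Ifngr1 and -0.4394 to 0.2106 for Irf1. Ifngr1 spanned -0.3039 to 0.0203 in female active pain against control, and Ifngr2 -0.0648 to 0.1074 in female active against sedentary pain and -0.0914 to 0.0728 in male sedentary pain. Counts past the threshold ran from 18 to 31 interferon-gamma genes, 2 to 4 other Ly6 genes and 1 to 2 other serpins in female sedentary pain, from 0 to 29 and 0 to 3 for the first 2 lists in female active against sedentary pain, from 0 to 1 and 2 to 4 between controls, and from 0 to 1 interferon-gamma genes in the interaction.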
